A study of Mus musculus and Homo sapiens with 12 samples.

Results

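This account follows 10 genes that carry nucleic acid sensing to the type I interferon genes, matched by symbol in blood progenitors with and without the nucleolar RNA helicase DDX21. They are CGAS, STING1, RIGI, IFIH1, DHX58, MAVS, TLR3, ZBP1, TBK1 and IRF3, and all 10 were found among the 55487 genes of the mouse count table and the 78932 of the human one. In each experiment 8 of them passed the filter on low counts, with TLR3 and ZBP1 below it in both. The deposited human symbol table does not list TLR3 or ZBP1. Their human counts were read under the identifiers ENSG00000164342 and ENSG00000124256, which come from general knowledge of Ensembl and not from the files.

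Messenger RNA was sequenced in 12 libraries, 3 in each of 4 groups. The mouse groups were fetal liver LK cells at E13.5, a progenitor fraction that lacks lineage markers and carries Kit. WT embryos are labelled Ddx21f/f with no Cre named, and cKO embryos carried Vav-Cre; Ddx21f/f, in which the Vav promoter drives Cre in blood cells and in some endothelium. The human groups came from 1 embryonic stem cell line, H1, differentiated toward blood stem cells. A lentivirus with an mCherry marker brought in either the shNC control hairpin or the shDDX21 hairpin, and the cells were sorted 2 days later as CD34+ CD45+ CD43+ and hairpin-positive. Both human groups therefore carried a lentiviral vector. The labels do not name separate animals or cultures behind the replicates, so the p-values measure the spread between these libraries, which may be technical.

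Innate sensing of nucleic acids works in arms that meet at shared kinases. In the DNA arm, cGAS binds DNA in the cytosol and makes a cyclic dinucleotide that activates STING1. In the RNA arm, RIG-I (gene RIGI) and MDA5 (gene IFIH1) bind viral or misplaced self RNA and signal through MAVS on mitochondria, with LGP2 (gene DHX58) modulating both. TLR3 reads RNA duplexes in endosomes, and ZBP1 reads left-handed Z-form nucleic acids. The arms through STING1, MAVS and TLR3 activate the kinase TBK1, which phosphorylates the transcription factor IRF3, and IRF3 switches on interferon beta. Interferon then raises several of the sensors themselves, RIGI, IFIH1, DHX58 and ZBP1 among them.

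Libraries held between 15289510 and 23898130 counts. Ddx21 stood at 19.7% of WT in cKO and DDX21 at 14.5% of shNC in shDDX21. The 6 progenitor markers Kit, Cd34, Ptprc, Spn, Myb and Gata2 were tested in both experiments. Their summed level was 1311 to 1349 CPM (counts scaled to library size) in WT and 1410 to 1422 CPM in cKO, with Cd34 (0.69 on the log2 scale) and Ptprc (0.51) called higher and Kit (-0.19) and Spn (-0.14) lower. In human cells the sum was 1720 to 1748 CPM in shNC and 1689 to 1720 CPM in shDDX21, with SPN (0.35), CD34 (0.26) and KIT (0.13) called higher and GATA2 (-1.12), MYB (-0.61) and PTPRC (-0.45) lower. The part of these changes in the sensor values was not tested. Differences were tested with edgeR (quasi-likelihood F-test), p was adjusted by Benjamini-Hochberg across every gene that passed the filter, and a gene was called at an adjusted p under 0.05. Levels are CPM scaled by TMM library factors, with the SD over 3 libraries.

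RIGI and IFIH1 rose in both experiments, so their mouse promoters are shown first. Each runs from 250 bases before to 50 bases after the RefSeq start site on GRCm38.p6, on the minus strand of the genome and written 5′ to 3′ along the gene. Capitals mark matches to the core of the interferon-stimulated response element, which is GAAA, then 2 bases of any kind, then GAAA again, or to the same repeat with 1 base between its parts, GAAANGAAA. Both strands were searched, and the 2 patterns can overlap.
Rigi (listed there as Ddx58), chr4:40239776-40240075: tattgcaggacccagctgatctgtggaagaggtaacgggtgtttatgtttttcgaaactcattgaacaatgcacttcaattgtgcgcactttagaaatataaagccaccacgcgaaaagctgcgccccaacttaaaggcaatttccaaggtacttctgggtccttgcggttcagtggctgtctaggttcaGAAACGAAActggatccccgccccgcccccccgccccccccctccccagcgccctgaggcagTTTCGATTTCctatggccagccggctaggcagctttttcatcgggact
Ifih1, chr2:62646206-62646505: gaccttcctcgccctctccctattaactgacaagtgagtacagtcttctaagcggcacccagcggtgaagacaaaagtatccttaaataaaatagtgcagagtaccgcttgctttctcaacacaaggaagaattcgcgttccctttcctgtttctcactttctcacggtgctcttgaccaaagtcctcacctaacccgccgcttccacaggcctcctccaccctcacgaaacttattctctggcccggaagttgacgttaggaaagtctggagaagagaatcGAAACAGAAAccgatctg

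The Rigi window held GAAACGAAA from position -60 relative to the start site and, on the other strand, TTTCGATTTC from position 3. The Ifih1 window held GAAACAGAAA from position 33. RefSeq windows were matched for 7 of the 10 genes, and those of Cgas, Mavs, Tlr3, Tbk1 and Irf3 held neither pattern. No window was matched for Sting1, Dhx58 and Zbp1, so theirs were not searched. Among all 32851 promoter windows of this length, 3.44% held the repeat with 2 bases between and 3.17% held GAAANGAAA. For scale, 9 of the 16 windows found for the listed interferon targets held the first. A match describes letters only and says nothing of binding.

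Compared per length, the genes that relay the signal stood above the sensors in both species. In WT mouse cells Tbk1 was highest at 15.4 ± 0.622 RPKM, which is CPM divided by exon length in kilobases (SD, n = 3), followed by Mavs at 13.7 ± 0.490, Irf3 at 10.6 ± 2.45, Sting1 at 6.21 ± 0.182 and Cgas at 3.96 ± 0.300 RPKM. The helicase sensors followed, Ifih1 at 2.02 ± 0.0745, Dhx58 at 0.935 ± 0.134 and Rigi at 0.590 ± 0.0594 RPKM (SD, n = 3 each). Adjacent genes in this order did not overlap between libraries down to Rigi. Tlr3 and Zbp1 were last, both under 0.04 RPKM in every WT library, and they overlapped each other.

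In shNC human cells MAVS led at 31.3 ± 0.783 RPKM and IRF3 followed at 17.4 ± 0.464 RPKM (SD, n = 3 each). STING1 at 8.52 ± 0.373 and TBK1 at 8.37 ± 0.268 RPKM overlapped, as did CGAS at 4.98 ± 0.245 and IFIH1 at 4.71 ± 0.432 RPKM. DHX58 at 0.874 ± 0.0630 and RIGI at 0.590 ± 0.0227 RPKM were the lowest of the tested genes here too. The length merges all annotated exons, 14716 bases for human TBK1 against 3910 for mouse Tbk1, so this order depends on the annotation. Before division by length, in CPM, TBK1 (123.1) stood above STING1 (40.9) and RIGI (6.19) above DHX58 (3.34) in shNC. CPM grow with exon length, so they do not rank genes. Of the exon bases of human RIGI 42.6% also belong to ENSG00000288684, a gene on the same strand with a mean of 3.33 counts. How reads on shared bases were counted is not given in the sources used here, so the RIGI level is uncertain.

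Neighbours in the order per length changed places in the perturbed cells. Rigi reached 1.10 ± 0.126 RPKM in cKO and overlapped Dhx58 (1.03 ± 0.163), which it had been below in WT. In shDDX21, RIGI (1.39 ± 0.0584 RPKM) stood above DHX58 (1.10 ± 0.0355), and CGAS (2.61 ± 0.0756) stood below IFIH1 (6.50 ± 0.147 RPKM; SD, n = 3 each). TBK1 (10.4 ± 0.0424) also stood above STING1 (9.33 ± 0.483) in shDDX21.

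**Figure D1:**
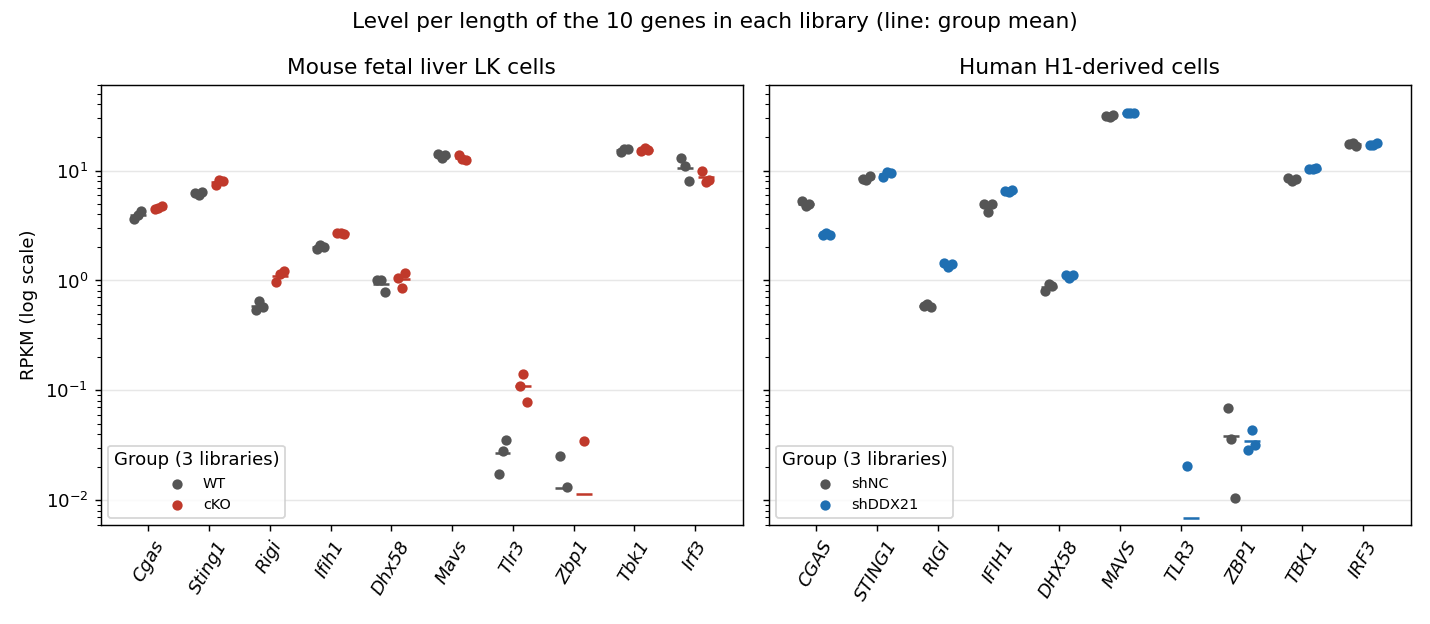
Level of each gene in RPKM on a log axis, one point per library and a line at the group mean, for WT and cKO mouse cells (left) and shNC and shDDX21 human cells (right). Libraries with no count are not drawn; TLR3 and ZBP1 lie far below the other 8 genes, and RIGI is the lowest of those 8 in both control groups.

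To ask whether loss of DDX21 changed the sensing machinery, the genes were read from the fits over all genes. In the mouse 3 of 8 tested genes were called, Rigi, Ifih1 and Sting1, all higher in cKO. Over all 14918 mouse genes tested 36.5% were called, 20.7% called higher and 15.8% called lower, so 3 of 8 is close to the share over all genes. No gene of the 8 was called lower; the count was 0 at an unadjusted p under 0.05 as well, and 0 with DESeq2. In human cells 6 of 8 were called, RIGI, IFIH1, TBK1, MAVS and STING1 higher and CGAS lower, where 52.7% of all 20188 genes were called, 25.3% higher and 27.4% lower. Most human genes tested were thus called too. The human directions depend on scaling: with libraries scaled by their length-divided totals, as TPM does, an alternative chosen after seeing the data, the median over all genes was -0.15. The same 8 genes then gave 3 calls higher (RIGI, IFIH1 and TBK1) and 3 lower (CGAS, MAVS and IRF3), and all genes gave 3106 higher and 7913 lower in place of 5105 and 5526. In the mouse that median was 0.084, with 3647 genes higher and 1463 lower in place of 3083 and 2360. The median log2 fold change of the 8 was 0.17 in the mouse and 0.22 in human cells, against 0.00057 and 0.0052 over all genes tested. The 3 perturbed libraries lay beyond all 3 controls for 4 of 8 genes in the mouse (49.0% over all genes) and for 6 of 8 in human cells (57.4%).

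In the DNA arm the experiments parted at the sensor. Mouse Cgas (ENSMUSG00000032344; GRCm38 chromosome 9, 78430526 to 78443237, minus strand) measured 15.1, 16.4 and 17.5 CPM in WT and 18.4, 18.9 and 19.5 CPM in cKO. All cKO libraries were above all WT libraries, but the log2 fold change of 0.22 (SE 0.082) was not called (adjusted p 0.0778). It was called with scaling to total counts, at 0.28 (adjusted p 0.0487), and to length-scaled totals, at 0.30 (adjusted p 0.0470). Human CGAS (ENSG00000164430) measured 21.9, 19.9 and 20.5 CPM in shNC and 10.7, 11.3 and 10.7 CPM in shDDX21. Here every shDDX21 library was near 11 CPM and below every control, and CGAS fell to 52.3% of shNC for a log2 ratio of -0.93 (SE 0.086, adjusted p 1.22e-15). It was the only one of the 8 human genes called lower.

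Sting1, the adaptor downstream of cGAS, rose modestly in the mouse. Its levels were 16.95, 16.5 and 17.5 CPM in WT and 20.2, 22.3 and 21.9 CPM in cKO, and the log2 difference was 0.34 (SE 0.073, adjusted p 0.0108). The groups did not overlap. Sting1 lost its call without 1 library: without WT replicate 2 the adjusted p was 0.0504. Human STING1 stood at 40.1, 39.6 and 42.9 CPM in shNC and 42.1, 46.5 and 45.7 CPM in shDDX21. The lowest shDDX21 library lay within the control range, and the call (log2 fold change 0.13, SE 0.053, adjusted p 0.0363) was lost in 8 of 14 alternatives, with adjusted p over all of them from 0.00110 to 0.648. With length-scaled totals the sign turned (-0.032, adjusted p 0.648). The others were total counts (0.116), no filter (0.0867), DESeq2 (0.116) and leaving out shNC replicate 1 (0.134) or 2 (0.142), or shDDX21 replicate 2 (0.164) or 3 (0.113).

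Among the helicase sensors, RIGI made the largest rise of the 8 tested genes in each experiment. Mouse Rigi (ENSMUSG00000040296; chromosome 4, 40203773 to 40239828, minus strand) measured 3.81, 4.62 and 4.04 CPM in WT and 6.79, 8.02 and 8.53 CPM in cKO, from 85 to 95 counts and 156 to 198 counts. Each cKO library exceeded each WT library, and the level was 1.87-fold that of WT (log2 fold change 0.90, SE 0.13, adjusted p 0.00176). Human RIGI (ENSG00000107201) measured 6.09, 6.46 and 6.02 CPM in shNC and 14.99, 13.9 and 14.9 CPM in shDDX21. This was a 2.36-fold rise with well separated groups (log2 fold change 1.24, SE 0.11, adjusted p 5.41e-17). When a change of at least 2-fold was also required, human RIGI was the 1 call left of 8 genes, where 7.18% of all human genes were called and 3.35% called higher. In the mouse 0 of 8 were left, where 9.08% of all genes were called and 7.27% called higher.

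IFIH1, which encodes the sensor of long RNA duplexes, rose in both species. Mouse Ifih1 (ENSMUSG00000026896; chromosome 2, 62595798 to 62646255, minus strand) measured 15.9, 17.1 and 16.4 CPM in WT and 22.03, 22.1 and 21.6 CPM in cKO. The cKO libraries were tightly grouped above WT, for a log2 ratio of 0.41 (SE 0.067, adjusted p 0.00305). Human IFIH1 (ENSG00000115267) measured 25.9, 21.997 and 25.9 CPM in shNC and 33.9, 33.2 and 34.7 CPM in shDDX21, with the shDDX21 libraries all higher and a log2 change of 0.46 (SE 0.065, adjusted p 5.12e-09). Both RIGI and IFIH1 kept their calls in all 14 alternatives of each experiment.

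DHX58, whose product LGP2 lacks the signalling domains of the other RNA helicase sensors, was not called in either experiment. Mouse Dhx58 measured 3.32, 3.31 and 2.55 CPM in WT and 3.44, 2.80 and 3.85 CPM in cKO, with overlapping groups (log2 fold change 0.13, SE 0.17, adjusted p 0.583). Human DHX58 measured 3.07, 3.52 and 3.43 CPM in shNC and 4.26, 4.03 and 4.27 CPM in shDDX21. All 3 shDDX21 libraries were above the controls, and the log2 fold change of 0.33 (SE 0.17, adjusted p 0.0937) passed the threshold only with upper-quartile factors (0.40, adjusted p 0.0393). With 54 to 83 counts per human library, depth limits what can be shown for this gene.

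MAVS is the mitochondrial adaptor of the RNA arm. Mouse Mavs (ENSMUSG00000037523) measured 47.0, 43.9 and 46.1 CPM in WT and 46.0, 42.6 and 41.9 CPM in cKO, overlapping groups for a log2 ratio of -0.070 (SE 0.060, adjusted p 0.398), or 0.013 with length-scaled totals. Human MAVS (ENSG00000088888) measured 368, 359 and 378 CPM in shNC and 389, 389 and 390 CPM in shDDX21. The difference was small, 0.080 on the log2 scale (SE 0.023, adjusted p 0.00261), and its direction depended on scaling. With total counts it was 0.051 (adjusted p 0.0588), and with length-scaled totals MAVS was called lower, at -0.079 (adjusted p 0.00361).

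The endosomal sensor TLR3 and the Z-form sensor ZBP1 were near the limit of detection. Mouse Tlr3 (ENSMUSG00000031639) gave 2, 3 and 4 reads in the WT libraries against 13, 18 and 9 in cKO. All 3 cKO libraries were higher, with a ratio over the summed counts of 4.11 (95% exact binomial interval 1.96 to 9.62, covering counting error only). It did not pass the filter, and when genes of any count were tested, Tlr3 gave a log2 value of 1.97 (SE 0.48, adjusted p 0.00978). Where 1 library was left out, Tlr3 could pass the filter, but only through the cKO group in which it is high, so those fits add no support. For human TLR3 the count was 0 in all 3 shNC libraries and 3, 0 and 0 in shDDX21, so both groups were at or under the floor of 3 counts, at most 0.196 CPM. Zbp1 gave 2, 0 and 1 reads in WT against 0, 3 and 0 in cKO, also at the floor. Human ZBP1 gave 7, 3 and 1 reads in shNC against 3, 4 and 3 in shDDX21, a ratio of 0.877 (95% exact binomial interval 0.334 to 2.27). A difference in ZBP1 was not detectable at this depth.

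Where the arms converge, TBK1 rose in human cells and was not called in the mouse. Mouse Tbk1 (ENSMUSG00000020115), the kinase that phosphorylates IRF3, measured 57.4, 61.3 and 61.9 CPM in WT and 58.3, 62.6 and 59.995 CPM in cKO. These values overlap almost fully, and the log2 ratio came to 0.0021 (SE 0.053, adjusted p 0.980), with its sign changing between alternatives. Human TBK1 (ENSG00000183735) measured 127, 119 and 124 CPM in shNC and 153, 153 and 154 CPM in shDDX21. The groups were clearly apart, for a log2 ratio of 0.31 (SE 0.031, adjusted p 3.96e-14). With length-scaled totals human TBK1 was still called higher, at 0.15 (adjusted p 2.50e-05).

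IRF3, the transcription factor at the end of the chain, was not called in either experiment with TMM scaling. Mouse Irf3 (ENSMUSG00000003184; chromosome 7, 44997648 to 45002848, plus strand) had the widest spread of the 8 genes, with 44.4, 37.6 and 27.6 CPM in WT and 34.3, 26.9 and 28.4 CPM in cKO. WT replicate 3 lay inside the cKO range while the other WT libraries lay above it, and the log2 ratio came to -0.29 (SE 0.17, adjusted p 0.228). Without that library it was -0.46 with an adjusted p of 0.0302, which makes it a call. Human IRF3 (ENSG00000126456) measured 66.7, 67.0 and 63.8 CPM in shNC and 65.0, 65.3 and 67.9 CPM in shDDX21, overlapping groups for a log2 ratio of 0.0051 (SE 0.042, adjusted p 0.932). With length-scaled totals it was called lower, at -0.15 (adjusted p 0.00154). IRF3 shares 19.3% of its human and 2.56% of its mouse exon bases with BCL2L12 on the opposite strand, and without a stated strand setting the reads there cannot be assigned with certainty.

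**Figure D2:**
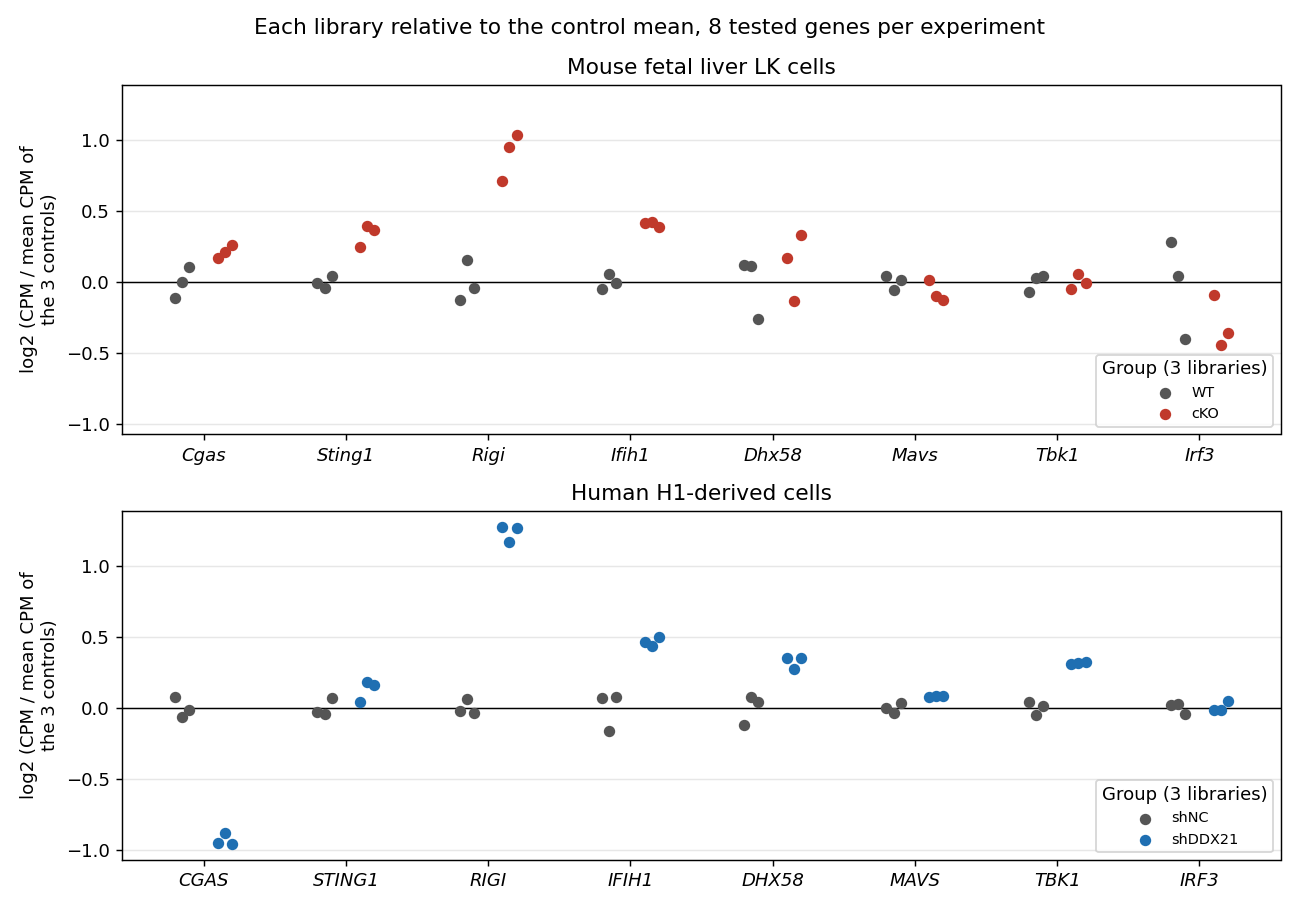
Level of each tested gene in each library as log2 of its CPM over the mean CPM of the 3 controls, for the mouse (top) and human (bottom) experiments. Rigi and Ifih1 separate in both; CGAS is lower in every shDDX21 library, and the 3 WT points of Irf3 spread from 44.4 to 27.6 CPM.

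The difference between the mouse and human effects was tested directly in 1 fit of 12 libraries over 10318 genes matched by symbol, of which 56.2% were called. Among the 8 genes 3 were called, 1 with the mouse effect above the human one (35.8% of all matched genes) and 2 below (20.4%). CGAS had the largest gap, the mouse effect exceeding the human one by 1.15 on the log2 scale (SE 0.10, adjusted p 1.98e-06). For TBK1 the mouse effect was below the human one by a difference of -0.31 (SE 0.058, adjusted p 0.000691), and for MAVS by -0.15 (SE 0.056, adjusted p 0.0380). The MAVS difference was lost in 11 of 19 alternatives. These were total counts (-0.056, adjusted p 0.413), length-scaled totals, where its sign turned (0.092, adjusted p 0.209), and leaving out 1 library, each of WT replicates 1 and 3, cKO replicates 2 and 3, shNC replicates 1 and 2 and shDDX21 replicates 1, 2 and 3, with adjusted p between 0.0568 and 0.0996. The TBK1 difference was lost with length-scaled totals (-0.071, adjusted p 0.458), which left 2 calls, CGAS (1.39) and STING1 (0.45). For RIGI the difference was -0.33 (SE 0.15, adjusted p 0.0781) and for IFIH1 -0.053 (SE 0.095, adjusted p 0.656), so a difference between species was not shown for the genes that rose in both. The RIGI difference was called without cKO replicate 3 (-0.40, adjusted p 0.0465). For STING1 it was 0.20 (adjusted p 0.0637), called with total counts (0.30, adjusted p 0.0194), with length-scaled totals (0.45, adjusted p 0.00231) and without cKO replicate 1 (0.26, adjusted p 0.0250). For IRF3 it was -0.30 (adjusted p 0.208), called without WT replicate 3 (-0.47, adjusted p 0.00808). The systems differ in species, age, vector and the way DDX21 was reduced, and these cannot be told apart.

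**Figure D3:**
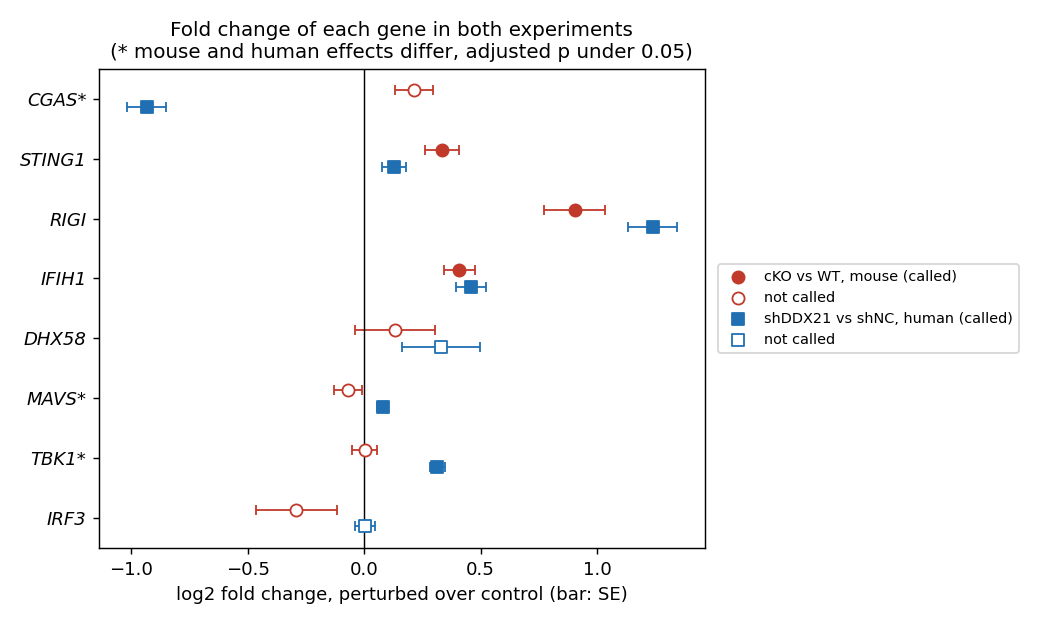
Log2 fold change of the 8 genes tested in both experiments, cKO over WT in red circles and shDDX21 over shNC in blue squares, with bars of 1 SE and filled symbols for calls. RIGI lies farthest right in both, and CGAS lies at 0.22 in the mouse and -0.93 in human cells.

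Markers of other cell types moved with the genotype in the mouse, and in bulk samples fewer cells of a type and less RNA per cell cannot be told apart. For scale, 20.7% of all mouse genes were called higher and 15.8% lower, and 25.3% and 27.4% of all human genes. Of 9 macrophage and monocyte markers 5 were tested, 4 called lower and 1 higher, and their summed level was 48.9 to 51.6 CPM in WT and 20.1 to 23.1 CPM in cKO. Csf1r, the receptor for macrophage colony-stimulating factor, fell by 2.08 on the log2 scale (adjusted p 6.56e-06). The tissue macrophage genes C1qa and C1qb had at most 1 count in any WT library and 0 in every cKO library, so they were near 0 in both groups. The 5 hepatocyte markers had a summed level of 1.31 to 1.67 CPM in WT and 27.96 to 31.6 CPM in cKO. Of the 4 tested, Alb, Apob and Ttr passed the filter only through cKO, so their calls are not counted. Afp had 18, 20 and 17 counts in WT against 326, 346 and 333 in cKO, and was called higher (4.07 on the log2 scale, adjusted p 1.32e-06). Of 5 endothelial markers 3 were tested, and Pecam1 was called higher (0.43), the sum moving from 36.4 to 38.3 CPM in WT to 48.0 to 51.0 CPM in cKO. Cdh5 was called higher as well (1.34, adjusted p 0.0261). With 14, 11 and 4 counts in WT against 30, 29 and 21 in cKO it passed the filter only through cKO, so its call is not counted. Of 5 dendritic cell markers 3 were tested, and Irf8 was called lower, the sum being 146.6 to 151.0 CPM in WT and 131.7 to 133.5 CPM in cKO. Markers of other cell types moved in human cells too. The 7 macrophage and monocyte markers tested split into 3 higher and 4 lower, with sums of 525.1 to 537.5 CPM in shNC and 557.8 to 561.7 CPM in shDDX21. The dendritic cell marker IRF8 fell by 1.22 (adjusted p 6.23e-34) and TCF4 rose by 0.26, their sum being 183 to 186 CPM in shNC and 161 to 163 CPM in shDDX21. Of 4 endothelial markers tested KDR and CDH5 fell by 0.31 each and LYVE1 rose by 0.79, the sum being 1364 to 1402 CPM in shNC and 1189 to 1204 CPM in shDDX21. No hepatocyte marker was matched in the human symbol table. The part of these cells in the sensor values was not tested.

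Genes outside the 10 were read from 6 lists of the surrounding pathway, with changes given as log2 fold changes. Other sensors went in both directions. In the mouse 3 of 14 tested were called higher and 4 lower, where 20.7% of all genes were called higher and 15.8% lower. The median log2 fold change of the 14 was -0.076. Aim2, which senses cytosolic DNA and starts an inflammasome, rose by 0.55 (SE 0.093, adjusted p 0.00355). Ifi204, a DNA sensor of the same family as Aim2, gave 15, 14 and 13 reads in the WT libraries against 4, 3 and 2 in cKO. It is 1 of the 4 called lower but passed the filter only through WT, where it is high, so its test adds no support. Zc3hav1, which binds CpG-rich viral RNA, fell by 0.22 (SE 0.033, adjusted p 0.00200). In human cells 4 of 14 were called higher and 6 lower, with a median of -0.16, where 25.3% of all genes were called higher and 27.4% lower. EIF2AK2, encoding the RNA-activated kinase PKR, rose from 193.8 to 265.2 CPM (log2 fold change 0.45, SE 0.026, adjusted p 4.55e-25) and DDX60 from 19.2 to 33.5 CPM (0.80, adjusted p 4.30e-17). DHX9, a helicase that unwinds RNA duplexes, fell by 0.27 (adjusted p 2.52e-16). Human AIM2, named after its values were seen, went the other way from mouse Aim2 (-0.53, adjusted p 4.28e-05). The AIM2 effects differed by 1.07 (SE 0.14, adjusted p 4.36e-05).

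DDX21 has itself been described in a cytosolic complex with DDX1 and DHX36 that signals through TICAM1, the adaptor TLR3 also uses. In human cells DDX1 fell from 218.6 to 104.3 CPM (-1.07 on the log2 scale, SE 0.030, adjusted p 2.02e-43). In the mouse Ddx1 went from 344.5 to 363.6 CPM (0.078, SE 0.041, adjusted p 0.173), and the effects differed by 1.15 (SE 0.046, adjusted p 3.36e-09). DHX36 and TICAM1, named after their values were seen because of this complex, gave -0.19 (adjusted p 8.61e-06) and -0.19 (adjusted p 0.325) in human cells, and -0.040 (adjusted p 0.602) and 0.13 (adjusted p 0.383) in the mouse.

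Adaptors, kinases and factors around TBK1 and IRF3 were also mixed, with 9 of 26 called higher and 6 lower in the mouse and 7 of 24 higher and 8 lower in human cells (median 0.030 and -0.021). Over all genes 20.7% were higher and 15.8% lower in the mouse and 25.3% and 27.4% in human cells, so the human counts lie near those shares. Ikbke, which encodes the kinase IKK-epsilon that shares substrates with TBK1, rose in the mouse from 6.81 to 17.5 CPM (1.36, SE 0.084, adjusted p 3.09e-05). Human IKBKE measured 27.99 CPM in shNC and 26.6 CPM in shDDX21 (-0.078, adjusted p 0.322), and the effects differed by 1.44 (adjusted p 1.02e-07). The interferon regulatory factor Irf1 rose by 0.68 in the mouse (adjusted p 0.00178), as did the Toll-like receptor adaptor Myd88 by 0.33 (adjusted p 0.00366) and the kinase Ripk1 by 0.25 (adjusted p 0.00531). In human cells IRF7, the interferon-inducible relative of IRF3, rose by 1.02 (SE 0.089, adjusted p 2.13e-16) and MYD88 by 0.41 (adjusted p 1.42e-12). G3BP1, a stress granule protein that assists cGAS, fell by 0.81 (adjusted p 1.14e-41), and TRAF3, the ubiquitin ligase between MAVS and TBK1, fell by 0.66 (adjusted p 1.01e-14). Mouse Irf7, named after its values were seen, went the other way from human IRF7, from 2.02 to 1.32 CPM (-0.61, adjusted p 0.0474), and the difference between effects was -1.63 (SE 0.20, adjusted p 2.89e-05).

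Nucleases and brakes limit self nucleic acids or the pathway itself. In the mouse 4 of 15 were called higher and 3 lower, with a median of -0.034, where 20.7% of all genes were called higher and 15.8% lower. Nlrc3, a negative regulator of STING1, rose by 0.93 (SE 0.085, adjusted p 0.000191), the deubiquitinase Cyld by 0.31 (adjusted p 0.00554) and the nucleotide hydrolase Samhd1 by 0.17 (adjusted p 0.00578). Rnaseh2a, the catalytic subunit of the enzyme that removes ribonucleotides from DNA, fell by 0.47 (SE 0.058, adjusted p 0.000806). In human cells 4 of 14 were higher and 4 lower, with a median of -0.019, where 25.3% of all genes were called higher and 27.4% lower. ADAR, which edits RNA duplexes so that MDA5 ignores them, was called higher at 0.13 (adjusted p 6.44e-08) with TMM scaling, while its TPM was 179.1 ± 1.68 in shNC and 175.9 ± 1.81 in shDDX21 (SD, n = 3 each). The mitochondrial RNA nuclease PNPT1 rose by 0.21 (adjusted p 1.21e-05) and the lysosomal nuclease DNASE2 by 0.36 (adjusted p 0.000113). SAMHD1 fell by 0.30 (adjusted p 4.17e-12), and its mouse and human effects differed by 0.47 (SE 0.056, adjusted p 2.34e-05). Human NLRC3, named after its values were seen, was called lower (-0.18, adjusted p 0.0191) with overlapping groups. The NLRC3 effects differed by 1.11 (SE 0.12, adjusted p 8.17e-06).

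The interferons themselves were nearly absent from the mouse counts. Of 9 ligand genes none passed the filter, and all had 0 counts in all 6 libraries except Ifnb1 (2, 0 and 0 in cKO) and Ifnk (2, 0 and 3 in WT and 3 in each cKO library). A library floor of 3 counts corresponds to at most 0.146 CPM in the mouse. The deposited human symbol table matched none of the 9, and they were not analysed here.

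Receptors and signalling genes gave 2 of 8 higher and 2 lower in the mouse and 3 of 7 higher and 2 lower in human cells (median -0.11 and 0.069). Over all genes 20.7% were called higher and 15.8% lower in the mouse, and 25.3% and 27.4% in human cells. The receptor kinase Jak1 rose by 0.29 in the mouse (adjusted p 0.00305) and JAK1 by 0.25 in human cells (adjusted p 9.31e-14). STAT2, a transcription factor of the interferon response, rose by 0.53 in human cells (adjusted p 7.07e-25). The receptor subunit Ifnar2 fell by 0.31 (adjusted p 0.00432) and Irf9, the DNA-binding partner of STAT2, by 0.35 in the mouse (adjusted p 0.00728), while IFNAR1 fell by 0.31 in human cells (adjusted p 3.02e-09).

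Interferon targets are genes that the secreted interferon switches on. In human cells 18 of 19 tested were called higher, where 25.3% of all genes were, and the median was 0.83, with OAS1, an oligoadenylate synthetase, rising from 20.7 to 71.6 CPM (1.78, SE 0.056, adjusted p 2.82e-40). OAS3 rose by 1.22, IFIT3 by 1.16 and MX1 by 0.96, each with an adjusted p of 1.74e-40 or less. In TPM, OAS1, OAS3, IFIT3 and MX1 rose too, but the count of 18 depends on scaling. CMPK2, 1 of the 18 (0.070), had a TPM of 147.1 ± 2.58 in shNC and 138.3 ± 2.84 in shDDX21 (SD). BST2, also of the 18, had 134.0 ± 3.70 and 134.8 ± 8.81 TPM. This list repeats a pattern already known for these libraries and is not independent evidence. In the mouse 12 of 20 were tested, 4 called higher and 1 lower, with a median of 0.46, where 20.7% of all genes were called higher and 15.8% lower. Of the 4, Oas3 gave 7, 9 and 3 reads in the WT libraries against 19, 18 and 17 in cKO and passed the filter only through cKO. Oas1a rose from 1.59 to 3.37 CPM (1.08, SE 0.20, adjusted p 0.00480), Ifitm3 from 7.51 to 16.6 CPM (1.15, SE 0.12, adjusted p 0.000448) and Ifi35 by 0.61 (adjusted p 0.000740), whereas Cmpk2 fell from 26.8 to 9.07 CPM (-1.57, SE 0.069, adjusted p 6.76e-06). The CMPK2 effects differed between the experiments by -1.63 (SE 0.052, adjusted p 6.40e-10).

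**Figure D4:**
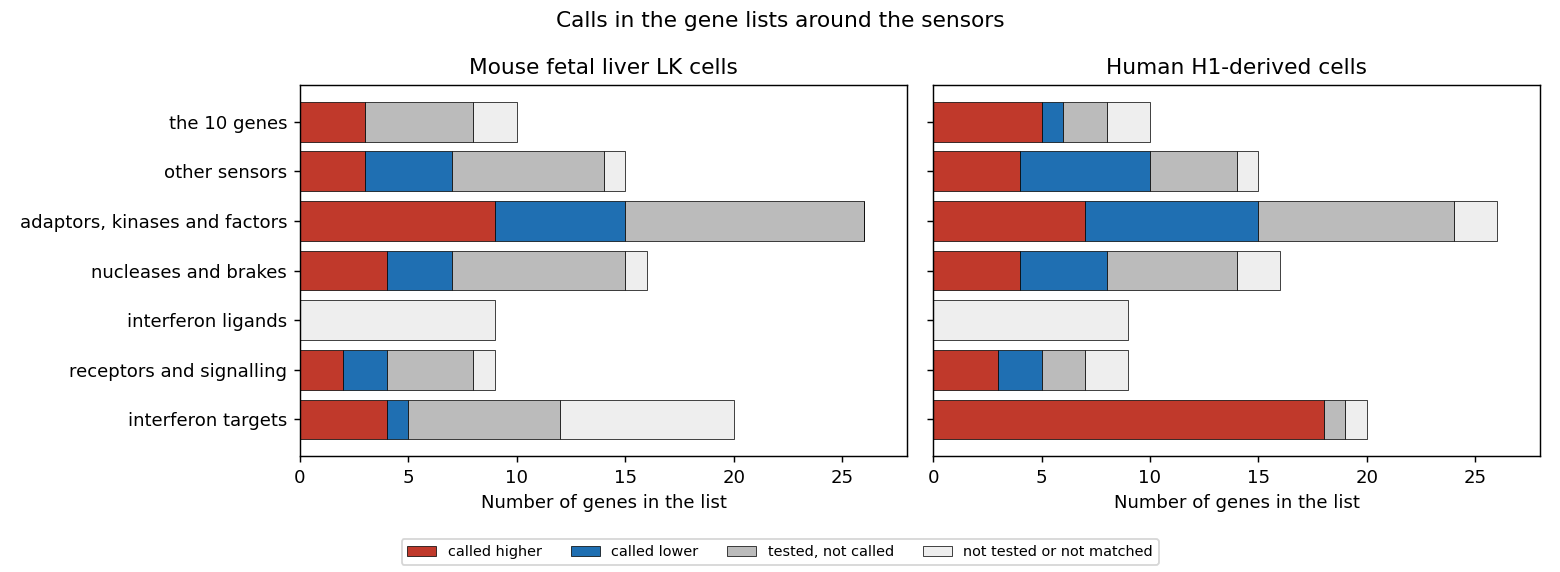
Number of genes in the 10 sensor genes and 6 surrounding lists that were called higher, called lower, tested without a call, or not tested, in the mouse (left) and human (right) experiments. Of the 20 listed interferon targets 19 were tested in human cells and 18 called higher, where 25.3% of all genes were. In the mouse 12 were tested and 4 called higher, where 20.7% of all genes were. Oas3, 1 of those 4, passed the filter only through cKO.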

How the data were processed

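The submitters' processing notes name STAR, featureCounts and DESeq2 and the builds mm10 and hg38; tool versions and the strand setting are not given in the sources used here. Raw counts per gene, with an exon length, were deposited by the authors. The authors' normalized tables (signal per gene, and its log2 over the control mean) served only to name genes, and GENCODE M21 names filled gaps in the mouse.

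The counts were fitted in R 4.3.3 with edgeR 4.0.16 (filterByExpr, TMM factors, glmQLFit and glmQLFTest, two-sided), separately per experiment, and in 1 fit of 12 libraries for the difference between effects. Each SE was taken from the log2 fold change and the F statistic. RPKM uses the deposited length. With 3 libraries against 3 an exact permutation test cannot give a two-sided p below 0.1. Replicate pairs differed beyond sampling noise, far more so in the mouse. Chi-square per degree of freedom was 1.48 to 1.645 in human cells and 1.925 to 26.0 in the mouse. The common coefficient of variation between replicates, as fitted by edgeR, was 2.23% in human cells and 10.5% in the mouse. The fit of 12 libraries estimated the spread of each gene over both experiments together. Alternatives were other scalings and filters, DESeq2 1.42.0, a replicate block, a 2-fold threshold, leaving out each library and, chosen after seeing the data, length-scaled totals. The fits were also run on simulated counts, with 200 genes per experiment changed at least 2-fold, each averaging at least 50 counts. Those counts had the same spread for every gene, no smaller changes and no variation shared between libraries. They therefore do not check the smaller changes given here. All 10 genes are named, with up to 4 called genes of smallest p per surrounding list and experiment, except a few genes that are not reported here. Members and lists were chosen with earlier results of these data known. No column of per-sample values was left unused (0).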

Additional observations from a re-analysis of the deposited data

Results flagged for a closer look

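For 3 genes the mouse and human effects differed in the test of the difference itself. The mouse effect on CGAS exceeded the human effect by 1.15 on the log2 scale (edgeR interaction, adjusted p 1.98e-06). For TBK1 the difference was -0.31 (adjusted p 0.000691), with all 3 shDDX21 libraries above the controls and overlapping groups in the mouse. For MAVS the difference was -0.15 (adjusted p 0.0380), the smallest of the 3, and it was lost in 11 of 19 alternatives. The TBK1 difference was lost in 1 of 19, length-scaled totals (-0.071, adjusted p 0.458). Over all 10318 matched genes 56.2% gave a call in this test.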

How the results depend on the processing

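RIGI and IFIH1 in both experiments and CGAS and TBK1 in human cells kept direction and call in all 14 alternatives of their experiment, and the CGAS difference between experiments in all 19. With a 2-fold change required as well, calls over all genes dropped to 1354 in the mouse and 1450 in human cells, and calls among the 10 genes to 0 and 1. Leaving out each library gave 3 to 5 calls among the 10 in the mouse and 5 to 6 in human cells. The mouse 5 came without WT replicate 3 (Irf3 lower besides the 3, and Tlr3, which entered only through cKO). Tlr3 was also counted without WT replicate 1, WT replicate 2 or cKO replicate 3. Without WT replicate 2 the 3 calls were Rigi, Ifih1 and Tlr3, as Sting1 lost its call. Total counts moved the split over all mouse genes from 3083 higher and 2360 lower to 3565 and 1612. Uncalled values changed sign for mouse Tbk1 (-0.014 with RLE factors, -0.015 without a filter, -0.021 with DESeq2, -0.033 to 0.037 leaving out a library), human IRF3 (-0.024 with total counts, -0.00095 without a filter, -0.022 to 0.020 leaving out a library) and the IFIH1 difference (0.042 with total counts, -0.088 to 0.023 leaving out a library); the cause was not tested. Scaling to length-divided totals as TPM does, chosen after seeing the data, shifts every gene of an experiment together. It turned human STING1 to -0.032, MAVS to -0.079 and IRF3 to -0.15, mouse Mavs to 0.013, and the differences of IFIH1 to 0.19, DHX58 to 0.046 and MAVS to 0.092. Replicate numbers are shared between groups, but same-numbered libraries, each taken relative to its group mean, correlated at 0.32, -0.18 and 0.013 in the mouse. In human cells these values were near 0. Differently numbered mouse libraries reached -0.42 (WT replicate 3 with cKO replicate 1) and 0.41 (WT replicate 3 with cKO replicate 2). Mouse libraries of both groups thus shared variation that the replicate number does not mark, and its source was not tested. The replicate block gave 5166 mouse and 10601 human calls and again 3 and 6 calls among the 10 genes. Using TPM in place of RPKM left the order of all 40 levels within groups as it was, but not the directions above. The kept order is no check, because within a library TPM and RPKM differ only by a factor common to all genes. Fewer than 100 counts per library limit Dhx58, TLR3 and ZBP1 in both experiments and Rigi in WT.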
